A study of Homo sapiens with 18 samples.

Results

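A set of 6 protein-coding genes moved more than 2-fold in the same direction after CRISPRi suppression of *DNAJC17* in both sarcoma lines examined. *OVGP1*, *BAAT*, *DCAF4L1*, *RASL11A* and *KCTD14* were higher in knockdown cells, and *MYO5C* was lower. They are 6 of the 57500 genes counted. Of the 13841 genes with enough counts to be tested in both lines, 35 were past the threshold in the same direction, an adjusted p under 0.05 with at least a 2-fold change, and 13 of these 35 are annotated as protein coding. The 7 protein-coding genes not taken here are *DNAJC17* itself, *HSPE1-MOB4*, *INO80B-WBP1*, *PPP1R15A*, *MAMSTR*, ENSG00000260170 and ENSG00000275778. The 6 genes were thus taken from 13 that passed on fold change and adjusted p in the knockdown contrast of both lines. The threshold alone does not set them apart from the other 7. Because they were chosen by it, their knockdown values are given as a description and carry no test.

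RNA sequencing was performed in ES8 cells, an Ewing sarcoma line, and Rh30 cells, a rhabdomyosarcoma line, with 9 libraries per line. Both lines carry dCas9-KRAB, a catalytically dead Cas9 fused to a repressor domain, in every group. Each line had 3 groups of 3 replicates, named A, B and C: parental cells with a control guide (sgCTL), parental cells with a guide against *DNAJC17* (sgDNAJC17), and cells stably carrying 3xFLAG-DNAJC17-dRRM with sgDNAJC17 (hereafter ΔRRM). *DNAJC17* encodes a J-domain co-chaperone of HSP70, and the ΔRRM allele lacks its RNA recognition motif. All libraries were made from polyadenylated RNA of cells selected with puromycin for 72 h after transduction with the guide. The ΔRRM cells are a separate stably selected population, and no ΔRRM library with sgCTL was used here, so the allele, its selection and the guide cannot be told apart in comparisons with sgCTL cells. Replicates were parallel platings, so p-values measure the spread between these libraries, which may be technical.

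Libraries held between 35342393 and 48245989 counted reads. *DNAJC17* had 559, 583 and 625 counts in ES8 sgCTL libraries and 59, 77 and 67 in ES8 sgDNAJC17 libraries. In Rh30 cells it had 474, 522 and 461 counts with sgCTL and 113, 81 and 104 with sgDNAJC17. The ΔRRM libraries had between 9849 and 14449 *DNAJC17* counts, which include the introduced allele. The summed level of 6 Ewing sarcoma markers was 1121 to 1344 CPM (counts relative to library size, with TMM scaling across the 18 libraries) in ES8 libraries and 161 to 379 CPM in Rh30 libraries, and that of 6 alveolar rhabdomyosarcoma markers was 91.4 to 121 CPM in ES8 and 2000 to 3234 CPM in Rh30 libraries.

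The 6 genes belong to unrelated families. *OVGP1* encodes oviductal glycoprotein, a secreted member of the chitinase-like glycoside hydrolases made by the oviduct epithelium. *BAAT* encodes the liver enzyme that conjugates bile acids to glycine or taurine. *DCAF4L1* encodes a WD-repeat protein related to DCAF4, a substrate receptor of CUL4-DDB1 ubiquitin ligases. *RASL11A* encodes a RAS-like small GTPase linked to transcription of ribosomal RNA genes. *KCTD14* encodes a protein of the KCTD family, whose BTB domain is shared with adaptors of CUL3 ubiquitin ligases. *MYO5C* encodes a class V unconventional myosin that carries secretory cargo along actin in epithelial and glandular cells. As background on gene arrangement, transcription of a gene can continue past its polyadenylation site into a gene downstream on the same strand, and some such pairs are annotated as joined read-through transcripts.

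The genes lie on 6 chromosomes, with positions in GRCh38 as the files give them. *OVGP1* (ENSG00000085465) spans chromosome 1 positions 111414314 to 111427777 on the minus strand, with 2567 exonic bases. *BAAT* (ENSG00000136881) spans chromosome 9 positions 101360417 to 101383519 on the minus strand, with 3389 exonic bases. *DCAF4L1* (ENSG00000182308) spans chromosome 4 positions 41981696 to 41986467 on the plus strand, and its whole span of 4772 bases is 1 exon. The *RASL11A* gene (ENSG00000122035) spans chromosome 13 positions 27270327 to 27273690 on the plus strand, with 1624 exonic bases. *KCTD14* (ENSG00000151364) spans chromosome 11 positions 78015715 to 78046191 on the minus strand, with 1917 exonic bases. *MYO5C* (ENSG00000128833) is the longest and spans chromosome 15 positions 52192322 to 52295798 on the minus strand, with 10045 exonic bases. All counts below are of reads over these exons.

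RefSeq promoter sequences of GRCh38.p14, from 250 bases before to 50 bases after the annotated start, were matched for 3 of the 6 genes (*BAAT*, *MYO5C* and *RASL11A*, 4 entries in all). They were searched on both strands for the CCAAT box (CCAAT), the TATA box (TATAAA), the core of the heat shock element (GAANNTTC) and the ATF4-CHOP element (TGATGNAAN). The windows below, of 30 bases each and written 5′ to 3′ on the gene's strand with the matched letters in capitals, are shown because they hold every match in the 3 genes, and because *MYO5C* is the 1 gene of the 6 that was lower after knockdown.
MYO5C, chr15:52295854-52295883, minus strand: gcccggccccggCCAATggcagcgccgact
MYO5C, chr15:52295814-52295843, minus strand: agcttggagggaCCAATcccgccgctgccc
BAAT, chr9:101383771-101383800, minus strand: gccctaatggtgCCAATaggggtcaaacaa
BAAT, chr9:101383643-101383672, minus strand, match on the opposite strand: agtgatacatttATTGGgttcaataactgt
BAAT, chr9:101383749-101383778, minus strand: tcaaacaacttcTATAAAgaaaattattaa

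The CCAAT boxes of *MYO5C* began 67 and 27 bases before the annotated start. In *BAAT* the CCAAT matches lay 224 and 96 bases and the TATA match 202 bases before the start. Of 35116 promoters of the same length, 34.6% held CCAAT, 11.5% held TATAAA, 6.77% held GAANNTTC and 3.61% held TGATGNAAN. The last 2 motifs were found in none of the 4 entries, and the *RASL11A* promoter held none of the 4 motifs. A match describes the letters only.

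The knockdown libraries and the sgCTL libraries of each line did not overlap for any of the 6 genes, a separation that the choice of the genes favours. Across all genes, 1.95% of 17143 tested genes were past the threshold in ES8 cells (1.66% higher and 0.286% lower) and 1.55% of 15391 in Rh30 cells (0.767% higher and 0.786% lower). *OVGP1* had the highest level per exonic kb of the 6 in each ES8 group. Its counts there were 45, 51 and 47 with sgCTL and 163, 146 and 149 with sgDNAJC17, or 0.981 ± 0.104 and 3.79 ± 0.453 CPM (SD, n = 3). In Rh30 cells the counts were 6, 4 and 7 with sgCTL and 21, 20 and 13 with sgDNAJC17. The log2 difference of knockdown from control was 1.96 ± 0.16 (SE) in ES8 and 1.74 ± 0.42 in Rh30, where every library had fewer counts than any ES8 library. These are bulk libraries, in which a change in the share of cells that express a gene and a change in RNA per cell cannot be told apart.

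For *BAAT*, ES8 libraries had 6, 3 and 10 counts with sgCTL and 17, 17 and 14 with sgDNAJC17. Rh30 libraries had 9, 6 and 6 counts with sgCTL and 35, 23 and 21 with sgDNAJC17. All 6 control libraries thus held 10 counts or fewer, and the log2 difference was 1.60 ± 0.43 (SE) in ES8 and 1.98 ± 0.37 in Rh30. The ES8 value that put *BAAT* in the set was not past the threshold with DESeq2 (adjusted p = 0.0515) or in edgeR without sgCTL replicate A (adjusted p = 0.0803), sgCTL replicate B (0.0842) or sgDNAJC17 replicate B (0.0648). *DCAF4L1* had the largest difference of the 6. Its counts were 12, 1 and 5 in ES8 sgCTL libraries and 22, 50 and 47 in ES8 sgDNAJC17 libraries. In Rh30 cells they were 13, 18 and 19 with sgCTL and 82, 71 and 73 with sgDNAJC17. The log2 difference was 2.97 ± 0.53 (SE) in ES8, where the sgCTL libraries ranged from 1 to 12 counts, and 2.27 ± 0.23 in Rh30, where the replicates were close. The ES8 value rested on those control libraries, at 3.92 without sgCTL replicate A and 2.51 without sgCTL replicate B.

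*RASL11A* had 11, 11 and 17 counts in ES8 sgCTL libraries and 31, 24 and 52 in ES8 sgDNAJC17 libraries. In Rh30 cells it had 11, 5 and 6 counts with sgCTL and 27, 18 and 32 with sgDNAJC17. Replicate C was the highest knockdown library in both lines, and the log2 difference was 1.71 ± 0.34 (SE) in ES8 and 1.88 ± 0.41 in Rh30. *KCTD14* counts were 5, 7 and 4 with sgCTL and 18, 19 and 11 with sgDNAJC17 in ES8 cells. In Rh30 cells they were 12, 12 and 5 with sgCTL and 25, 36 and 33 with sgDNAJC17. The log2 difference was 1.84 ± 0.44 (SE) in ES8 and 1.79 ± 0.39 in Rh30, on counts of 7 or fewer in each ES8 control library. In ES8 the threshold was missed without sgCTL replicate A (edgeR adjusted p = 0.0582), sgCTL replicate C (0.0658) or sgDNAJC17 replicate B (0.0505).

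*MYO5C*, the motor protein gene, went the other way. Counts were 44, 67 and 64 in ES8 sgCTL libraries and 22, 27 and 22 in ES8 sgDNAJC17 libraries. In Rh30 cells they were 45, 55 and 60 with sgCTL and 31, 22 and 19 with sgDNAJC17. The level was 1.20 ± 0.284 CPM (SD, n = 3) with sgCTL and 0.586 ± 0.0881 with sgDNAJC17 in ES8 cells, and 1.26 ± 0.149 and 0.597 ± 0.096 CPM in Rh30 cells, so the control levels and the knockdown levels of both lines lay close together. Its log2 difference was -1.02 ± 0.26 (SE) in ES8 and -1.05 ± 0.25 in Rh30, the nearest of the 6 to the 2-fold limit. Just inside that limit with it were *MAMSTR* (-1.06 and -1.21), ENSG00000275778 (1.06 and 1.30) and *PPP1R15A* (1.06 and 1.42). Just outside were *PDRG1* (1.01 and 0.99), *CDYL2* (0.96 and 2.16), *RSRP1* (0.94 and 1.40) and *AOC3* (1.88 and 0.94), each given for ES8 and Rh30 in that order. With a correction for GC content and length, chosen after seeing the data, the *MYO5C* difference was -0.90 in ES8 and -0.97 in Rh30, inside 2-fold. It was also inside 2-fold in ES8 with all 18 libraries in 1 fit (-0.999), and without sgCTL replicate B (-0.87, edgeR adjusted p = 0.0721), sgCTL replicate C (-0.98, 0.0630) or sgDNAJC17 replicate C (-0.92, 0.0542). In Rh30 this was so without sgCTL replicate C (-0.97) or sgDNAJC17 replicate C (-0.95).

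**Figure D1:**
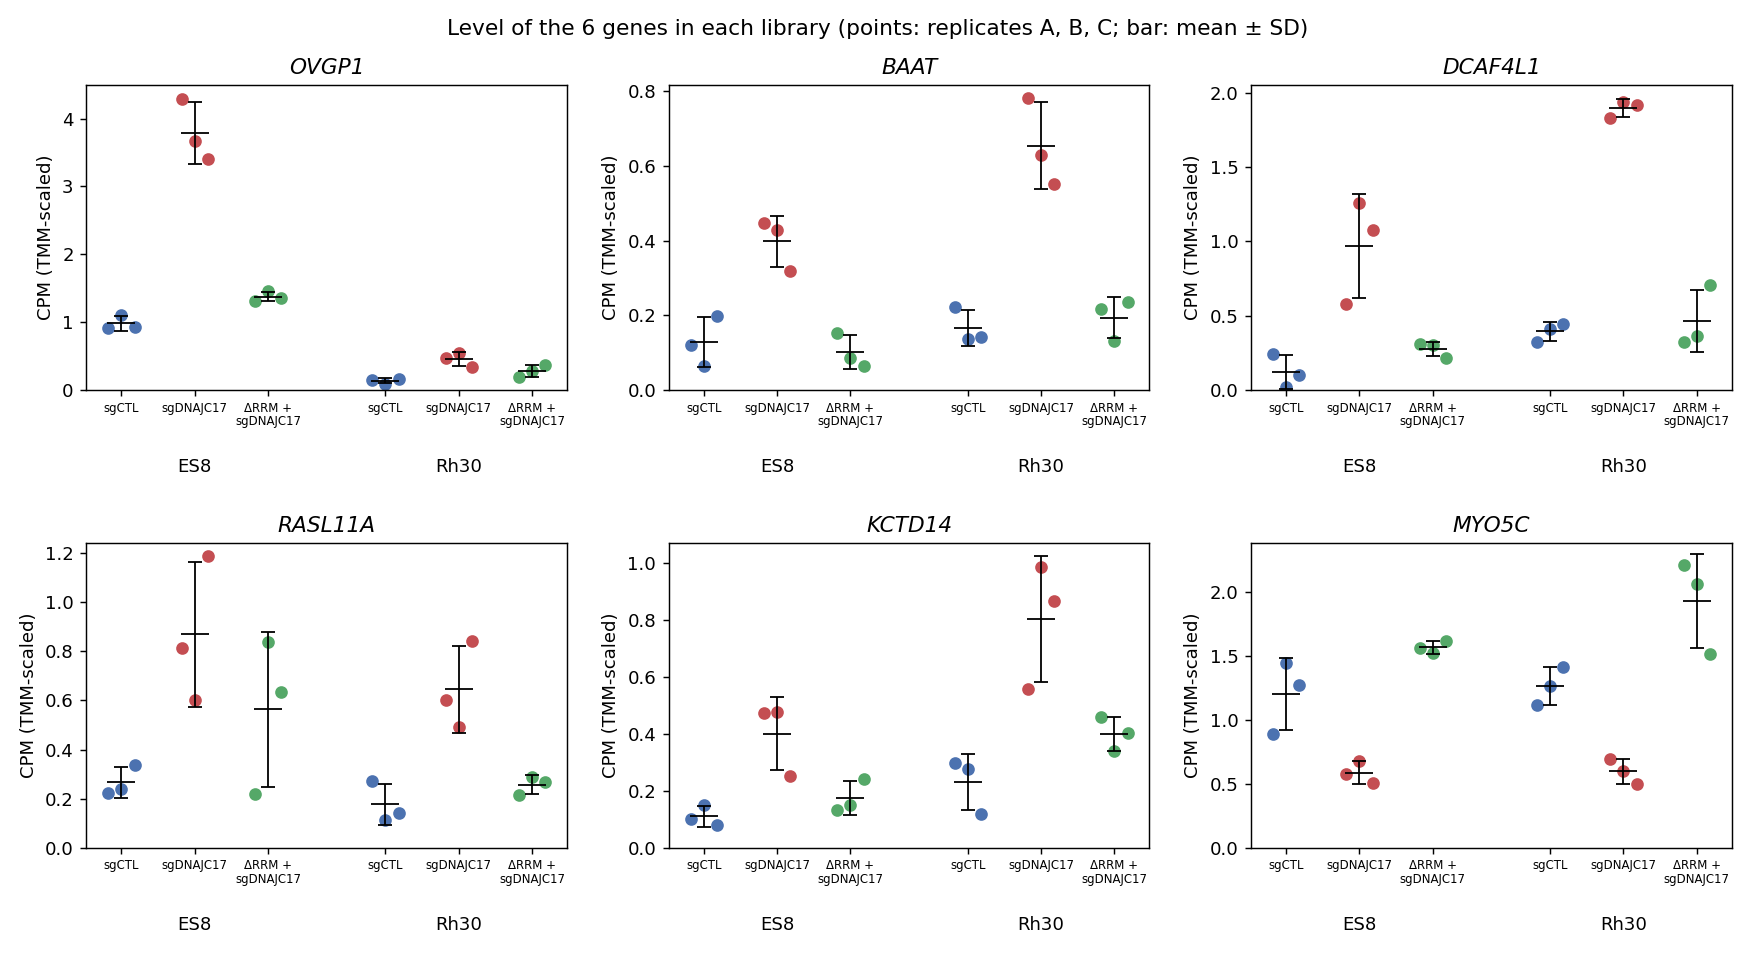
Level of each gene in CPM (TMM-scaled, vertical axes starting at 0) in every library, by line and group. Points are replicates A, B and C from left to right, and the bar gives the mean ± SD of 3 libraries. *MYO5C* has its lowest group of each line in sgDNAJC17 cells, and the other 5 genes have their highest there.

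All 6 genes were at the low end of the expression range. Mean counts over the 6 sgCTL and sgDNAJC17 libraries of ES8 ran from 10.7 for *KCTD14* to 100.2 for *OVGP1*, against a median of 588 for the genes tested. The Rh30 means ran from 11.8 for *OVGP1* to 46.0 for *DCAF4L1*, against a median of 741. The share of tested genes with a lower mean count was at most 28.1% in ES8 (*OVGP1*) and 18.4% in Rh30 (*DCAF4L1*). Per exonic kilobase, the highest mean of the 6 in control cells was 0.382 CPM per kb for *OVGP1* in ES8, and the lowest was 0.0254 CPM per kb for *DCAF4L1*, also in ES8. In sgDNAJC17 cells, the level per kb ranged from 0.0584 (*MYO5C*) to 1.47 (*OVGP1*) in ES8 and from 0.0595 (*MYO5C*) to 0.419 (*KCTD14*) in Rh30.

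Control cells of the lines were compared to ask how the starting levels differed. Of the 4 genes with enough counts, 2 were past the threshold, with a background of 50.9% of 17925 genes. *OVGP1* was lower in Rh30 than in ES8 sgCTL cells, with a log2 difference of -2.85 ± 0.38 (SE, edgeR adjusted p = 4.40e-09). *DCAF4L1* was higher in Rh30, by 1.65 ± 0.48 (edgeR adjusted p = 0.00174), and by 2.60 without ES8 sgCTL replicate A. *RASL11A* (-0.62 ± 0.46, edgeR adjusted p = 0.198) and *MYO5C* (0.06 ± 0.23, edgeR adjusted p = 0.803) did not pass, and *BAAT* and *KCTD14* had too few counts to be tested.

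Ordering the 6 groups by mean level, *OVGP1* was highest in ES8 sgDNAJC17 cells and lowest in Rh30 sgCTL cells, and the ranges of neighbouring groups overlapped only between the Rh30 sgDNAJC17 and ΔRRM groups. *BAAT*, *DCAF4L1* and *KCTD14* were highest in Rh30 sgDNAJC17 cells and second in ES8 sgDNAJC17 cells, with no overlap between these groups. For *BAAT* the 4 groups below overlapped each with the next. *RASL11A* showed overlap between every pair of neighbours in its order, which ran from ES8 sgDNAJC17 to Rh30 sgCTL cells. *MYO5C* was highest in the ΔRRM groups, then in the sgCTL groups, then in the sgDNAJC17 groups, and within each of these pairs the lines overlapped.

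The ΔRRM cells were compared with sgDNAJC17 parental cells to ask which genes differed when the guide was present together with the RRM-deleted allele. The sgDNAJC17 libraries are those that chose the genes, so a shift toward the control level is favoured by that choice. In each line 4 of the 6 genes were past the threshold, all in the direction of the sgCTL level, with a background of 1.97% of 17099 genes in ES8 (0.48% higher and 1.49% lower) and 7.79% of 15309 in Rh30 (4.42% higher and 3.36% lower). *BAAT*, *DCAF4L1* and *MYO5C* passed in both lines. *BAAT* in both lines, *KCTD14* in ES8 and *OVGP1* in Rh30 had enough counts for this test only through the sgDNAJC17 libraries. The *BAAT* calls are therefore favoured by the count filter as well as by the choice of the genes. *OVGP1* passed in ES8 and *RASL11A* in Rh30. The ΔRRM and sgDNAJC17 libraries did not overlap in 10 of the 12 combinations of gene and line. How often other genes were separated in this way was not computed, so this count has no background. At an unadjusted p under 0.05 in edgeR, 5 of the 6 genes passed in each line. The background for this was 30.2% of genes for ES8 cells and 63.5% for Rh30 cells.

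*BAAT* had 7, 4 and 3 counts in ES8 ΔRRM libraries and 8, 5 and 7 in Rh30 ΔRRM libraries, all at or under 8. Its log2 difference from sgDNAJC17 cells was -1.93 ± 0.47 (SE, edgeR adjusted p = 0.0175) in ES8 and -1.74 ± 0.43 (edgeR adjusted p = 3.39e-04) in Rh30. In ES8 the call was lost without sgDNAJC17 replicate B (edgeR adjusted p = 0.0647), ΔRRM replicate B (0.0587) or ΔRRM replicate C (0.0840). *DCAF4L1* had 14, 14 and 10 counts in ES8 ΔRRM libraries and 12, 14 and 21 in Rh30 ΔRRM libraries. The difference was -1.81 ± 0.37 (edgeR adjusted p = 0.00776) in ES8 and -2.03 ± 0.29 (edgeR adjusted p = 2.75e-09) in Rh30, with no overlap in either line.

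*MYO5C* had 71, 71 and 74 counts in ES8 ΔRRM libraries and 82, 79 and 45 in Rh30 ΔRRM libraries. It was higher than in sgDNAJC17 cells by 1.42 ± 0.23 on the log2 scale (SE, edgeR adjusted p = 0.00282) in ES8 and by 1.71 ± 0.26 (edgeR adjusted p = 3.16e-08) in Rh30. Every ΔRRM library of each line also had a higher *MYO5C* level in CPM than every sgCTL library. In raw counts the Rh30 groups overlapped, with 45 to 82 in ΔRRM and 45 to 60 in sgCTL libraries.

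*OVGP1* had 60, 68 and 62 counts in ES8 ΔRRM libraries and 7, 11 and 11 in Rh30 ΔRRM libraries. It was lower than in sgDNAJC17 cells by 2.74-fold in ES8, a log2 difference of -1.45 ± 0.16 (SE, edgeR adjusted p = 6.74e-04). In Rh30 the libraries of the groups overlapped, and the difference of -0.67 ± 0.43 did not pass (edgeR adjusted p = 0.178, 95% interval -1.52 to 0.18). *RASL11A* showed the reverse pattern between the lines. Its ES8 ΔRRM libraries had 10, 39 and 29 counts, which overlapped the knockdown libraries, and the difference was -0.63 ± 0.41 (edgeR adjusted p = 0.332, 95% interval -1.44 to 0.18). The Rh30 ΔRRM libraries had 8, 11 and 8 counts, with a difference of -1.29 ± 0.41 (edgeR adjusted p = 0.00479), which lost its call without sgDNAJC17 replicate C (edgeR adjusted p = 0.0523).

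*KCTD14* had 6, 7 and 11 counts in ES8 ΔRRM libraries and 17, 13 and 12 in Rh30 ΔRRM libraries. Its difference from sgDNAJC17 cells was -1.18 ± 0.44 (SE, edgeR adjusted p = 0.0931) in ES8. In Rh30 it was -0.96 ± 0.36 (edgeR adjusted p = 0.0180), a passing p with a change under 2-fold. The libraries did not overlap in CPM in either line. In ES8, however, the lowest sgDNAJC17 library and the highest ΔRRM library both had 11 counts (0.251 and 0.241 CPM).

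**Figure D2:**
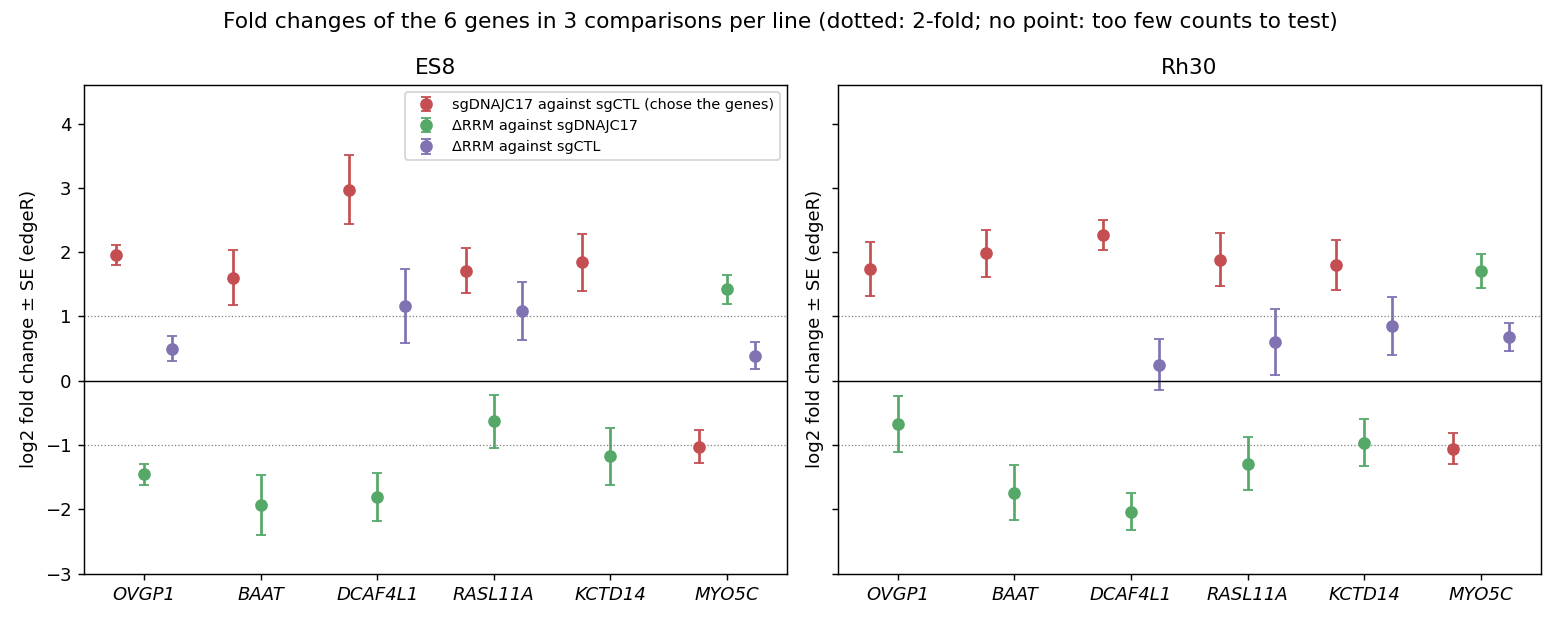
Log2 fold change ± SE (edgeR, vertical axis) of the 6 genes in ES8 (left) and Rh30 cells (right) for 3 comparisons, with dotted lines at 2-fold. The ΔRRM against sgDNAJC17 values have the opposite sign to the knockdown values for all 6 genes in both lines, and genes with no point had too few counts to test.

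As a share of the knockdown shift in mean CPM, the ΔRRM level had moved back by 78.0% (*KCTD14*) to 110% (*BAAT*) in ES8 cells for 4 of the 5 genes that were higher after knockdown, and by 50.6% for *RASL11A*. In Rh30 cells the share was 70.3% (*KCTD14*) to 95.3% (*DCAF4L1*) for 4 of them and 53.7% for *OVGP1*. *MYO5C* went beyond its control level, with 160% of its shift in ES8 and 200% in Rh30. These shares divide one small difference by another and are descriptions.

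Compared with sgCTL cells, the ΔRRM cells had none of the 4 tested genes past the threshold in ES8, where 0.0349% of 17199 genes passed, and none of 4 in Rh30, where 9.97% of 15442 passed. At an unadjusted p under 0.05 the edgeR counts were 2 of 4 in ES8, against 13.4% of all genes tested, and 1 of 4 in Rh30, against 70.7%, and DESeq2 called 0 in both lines. The sgCTL libraries are also those that chose the genes. In ES8 cells the log2 differences were 0.50 ± 0.20 (SE) for *OVGP1*, 1.16 ± 0.57 for *DCAF4L1*, 1.08 ± 0.45 for *RASL11A* and 0.39 ± 0.21 for *MYO5C*, with edgeR adjusted p between 0.326 and 0.425. The *DCAF4L1* value was 2.11 without sgCTL replicate A. In Rh30 cells they were 0.25 ± 0.40 for *DCAF4L1*, 0.60 ± 0.52 for *RASL11A* and 0.85 ± 0.45 for *KCTD14*, with edgeR adjusted p between 0.0909 and 0.588. *MYO5C* was higher by 0.67 ± 0.22 in Rh30 (edgeR adjusted p = 0.00506), a change under 2-fold. In CPM the ΔRRM libraries lay outside the sgCTL range in 5 of 12 combinations, all with higher levels in ΔRRM cells. These were *OVGP1* and *MYO5C* in both lines and *KCTD14* in Rh30. The share of all genes outside that range was not computed. In Rh30 the raw counts of these genes were not apart. There the lowest ΔRRM and the highest sgCTL counts were 7 and 7 for *OVGP1*, 12 and 12 for *KCTD14* and 45 and 60 for *MYO5C*. *BAAT* and *KCTD14* in ES8 and *OVGP1* and *BAAT* in Rh30 could not be tested.

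Whether these ΔRRM differences themselves varied between the lines was tested with an interaction term. None of 6 genes passed for ΔRRM against sgDNAJC17, with a background of 28.3% of 18812 genes, and none of 5 for ΔRRM against sgCTL, with a background of 41.4% of 18854. No member reached an unadjusted p under 0.05 in edgeR, against 38.6% and 47.7% of all genes tested, and DESeq2 called 0 in both. The interaction against sgDNAJC17 ran from -0.69 for *RASL11A* (95% interval -1.86 to 0.48) to 0.76 for *OVGP1* (-0.04 to 1.55). Intervals of this width leave room for a difference between the lines of more than 2-fold, so the *OVGP1* and *RASL11A* calls that passed in a single line were not shown to differ between lines.

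The surroundings of the 6 genes were then read from the coordinates. Each had a protein-coding gene upstream on its own strand within 25 kb. *MRPL50*, which encodes a mitochondrial ribosomal protein, ended 4.11 kb before *BAAT*. *MYO5A*, a paralogue of *MYO5C*, ended 11.5 kb before it, and *WDR77*, a partner of the arginine methyltransferase PRMT5, ended 12.1 kb before *OVGP1*. *RPL21*, a ribosomal protein gene, ended 13.6 kb before *RASL11A*. *TMEM33*, which encodes a membrane protein of the endoplasmic reticulum, ended 21.1 kb before *DCAF4L1*, and *NDUFC2*, a subunit gene of respiratory complex I, ended 22.1 kb before *KCTD14*.

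An upstream protein-coding gene on the same strand, ending within 25 kb and with at least 10 CPM, was found for all 5 genes that were higher after knockdown, in both lines. Among protein-coding genes tested, 20.7% of 13879 in ES8 and 20.5% of 12497 in Rh30 had one. Of the protein-coding genes past the threshold, 45 of 115 higher genes (39.1%) and 2 of 24 lower genes (8.33%) had one in ES8. In Rh30 it was 9 of 53 higher genes (16.98%) and 17 of 83 lower genes (20.5%). The share among higher genes was thus above that of all genes tested in ES8 and below it in Rh30, differences that were not tested. The 5 genes are themselves among the higher genes with such a neighbour in each line (5 of the 9 in Rh30), which raises both shares. The limit of 25 kb was set with the 6 genes known, and with a limit of 10 kb 1 of the 5, *BAAT*, kept such a neighbour. For *MYO5C*, *MYO5A* was above 10 CPM in Rh30 and below it in ES8.

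**Figure D3:**
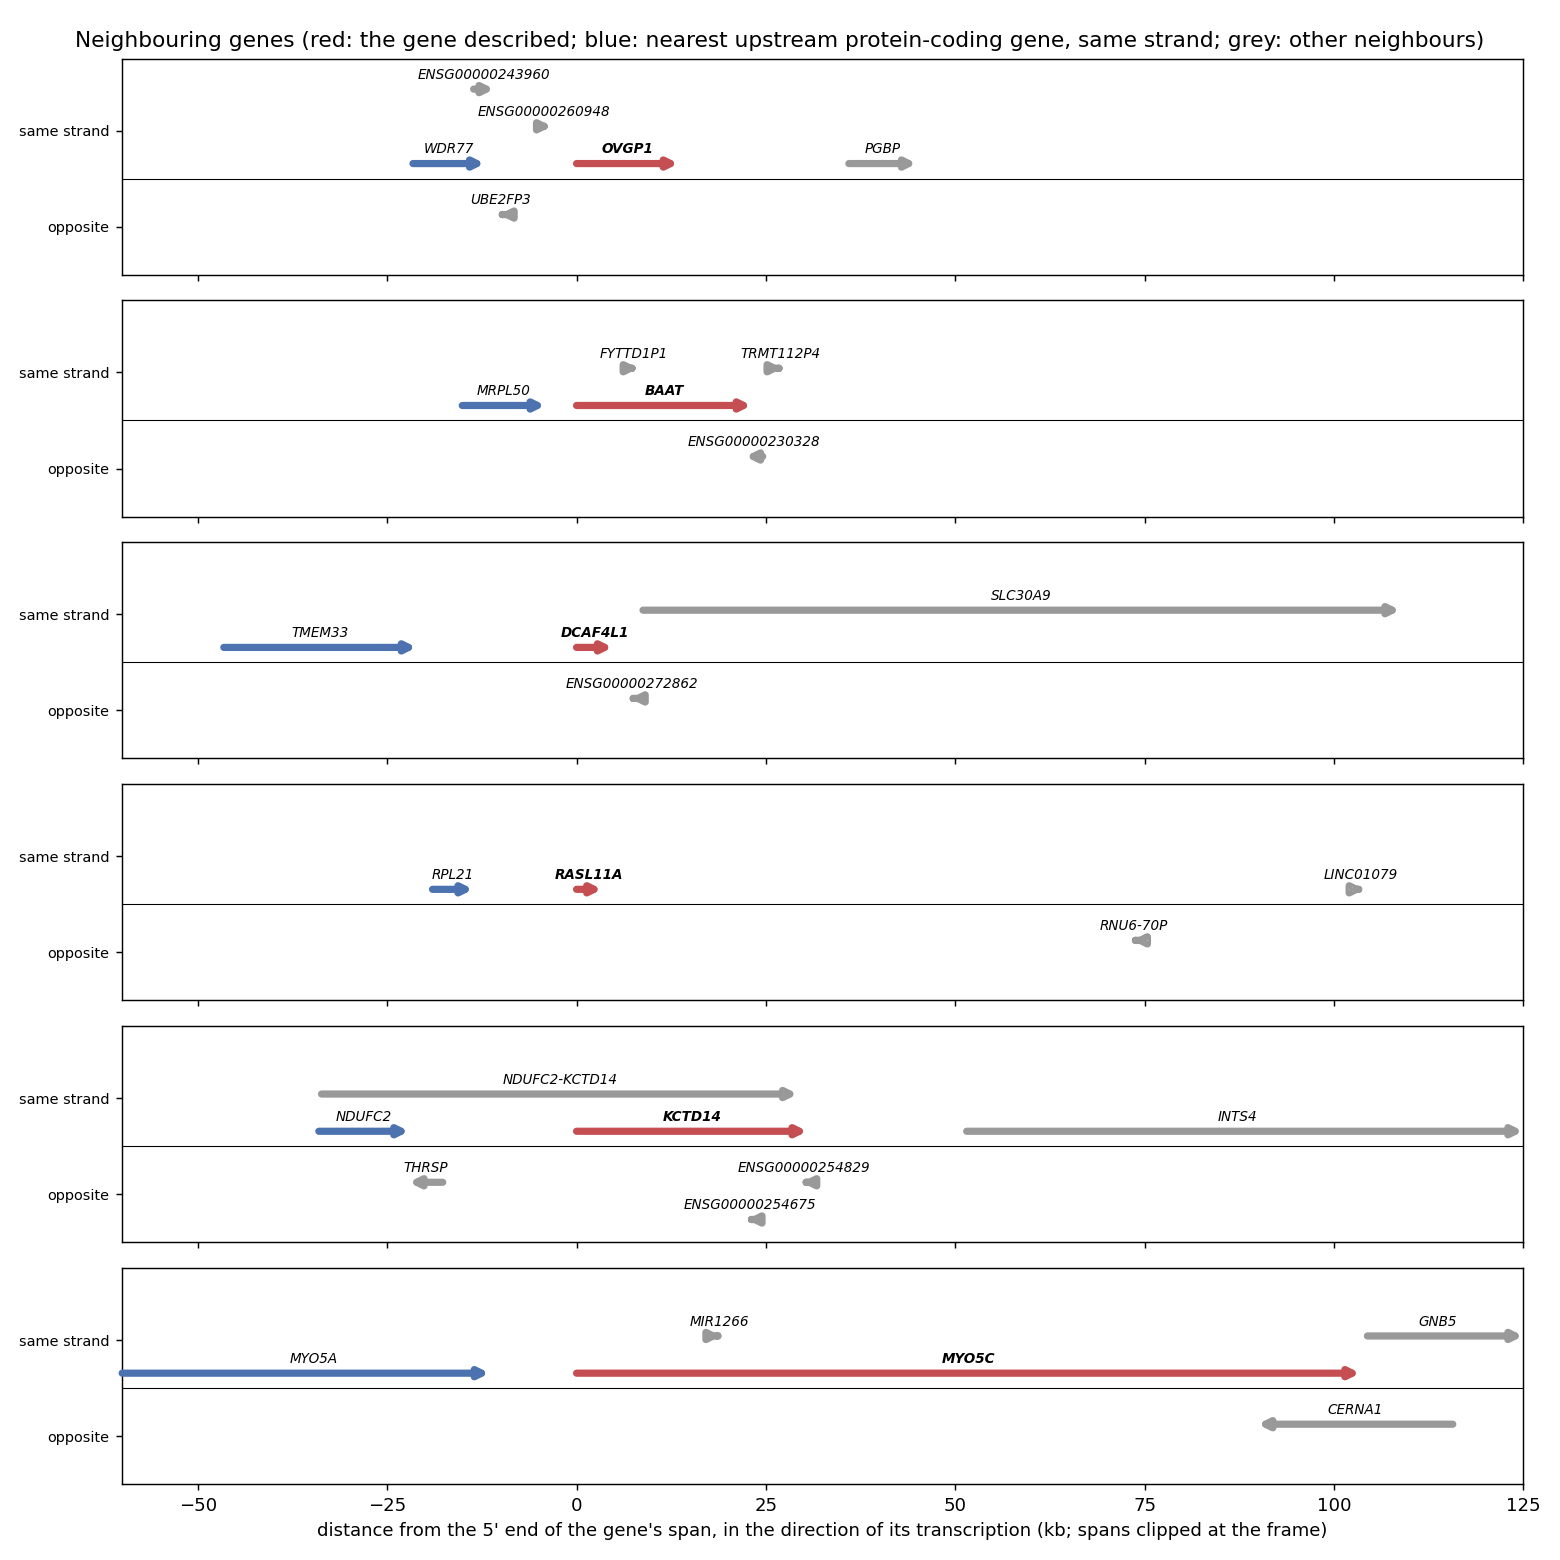
Spans of the 6 genes (red), the nearest upstream protein-coding gene on the same strand (blue) and other neighbours (grey), with distance in kb from the 5′ end of each gene in the direction of its transcription. Arrows point along transcription, and the shortest genes are drawn wider than scale so that they can be seen. The blue genes end between 4.11 and 22.1 kb before the red ones.

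Knockdown values of the upstream genes were smaller than those of the 5 genes themselves. This is favoured by the choice of the 5 genes for their knockdown values, whereas the neighbours were taken by position. *TMEM33* was higher after knockdown by 0.28 ± 0.09 on the log2 scale in ES8 (SE, edgeR adjusted p = 0.0494) and by 0.68 ± 0.06 in Rh30 (edgeR adjusted p = 4.37e-06). *MRPL50* (0.44 ± 0.09, edgeR adjusted p = 0.00183) and *NDUFC2* (0.64 ± 0.09, edgeR adjusted p = 1.83e-04) passed on p in Rh30 but not in ES8, where they differed by 0.10 ± 0.11 and 0.31 ± 0.13. *RPL21* passed in neither line (0.14 ± 0.06 and 0.17 ± 0.08), and its reads may be shared with its many processed copies. *WDR77* was lower in ES8 (-0.27 ± 0.06, edgeR adjusted p = 0.0107) and did not pass in Rh30 (-0.05 ± 0.06). *MYO5A* was lower in both lines, at -0.56 ± 0.16 in ES8 (edgeR adjusted p = 0.0258) and -0.27 ± 0.07 in Rh30 (edgeR adjusted p = 0.0128), the direction of *MYO5C*. None of these 6 upstream genes changed 2-fold on knockdown in either line.

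Levels per exonic kb relative to the upstream gene remained small. *OVGP1* stood at 0.698% ± 0.0684 (SD, n = 3) of *WDR77* in ES8 sgCTL cells, 3.27% ± 0.173 in sgDNAJC17 cells and 0.962% ± 0.0147 in ΔRRM cells, and at 0.0951%, 0.331% and 0.255% in Rh30 cells. *BAAT* stood at 0.597%, 1.77% and 0.446% of *MRPL50* in ES8 and at 0.234%, 0.685% and 0.142% in Rh30, in the same order of groups. For *DCAF4L1* and *TMEM33* the means were 0.227%, 1.51% and 0.562% in ES8 and 0.359%, 1.09% and 0.356% in Rh30. In these 3 pairs the ratio, like the level, was highest in sgDNAJC17 cells of both lines. In Rh30 the mean *BAAT* ratio was lower in ΔRRM than in sgCTL cells. The *DCAF4L1* ratio there was close, at 0.356% ± 0.177 (SD) in ΔRRM and 0.359% ± 0.0504 in sgCTL cells. Mean levels were 0.194 against 0.167 CPM for *BAAT* and 0.465 against 0.394 CPM for *DCAF4L1*, with overlapping libraries. The summed raw counts were 20 against 21 and 47 against 50.

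*RASL11A* was between 0.0267% and 0.443% of *RPL21* in all groups, highest with sgDNAJC17 in both lines. *KCTD14* stood at 1.18%, 3.55% and 1.72% of *NDUFC2* in ES8 and at 1.33%, 3.00% and 1.56% in Rh30. *MYO5C* was nearest to its upstream gene, at 31.7%, 23.8% and 41.7% of *MYO5A* in ES8, where the libraries of sgCTL and sgDNAJC17 cells overlapped, and at 3.70%, 2.12% and 8.45% in Rh30.

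**Figure D4:**
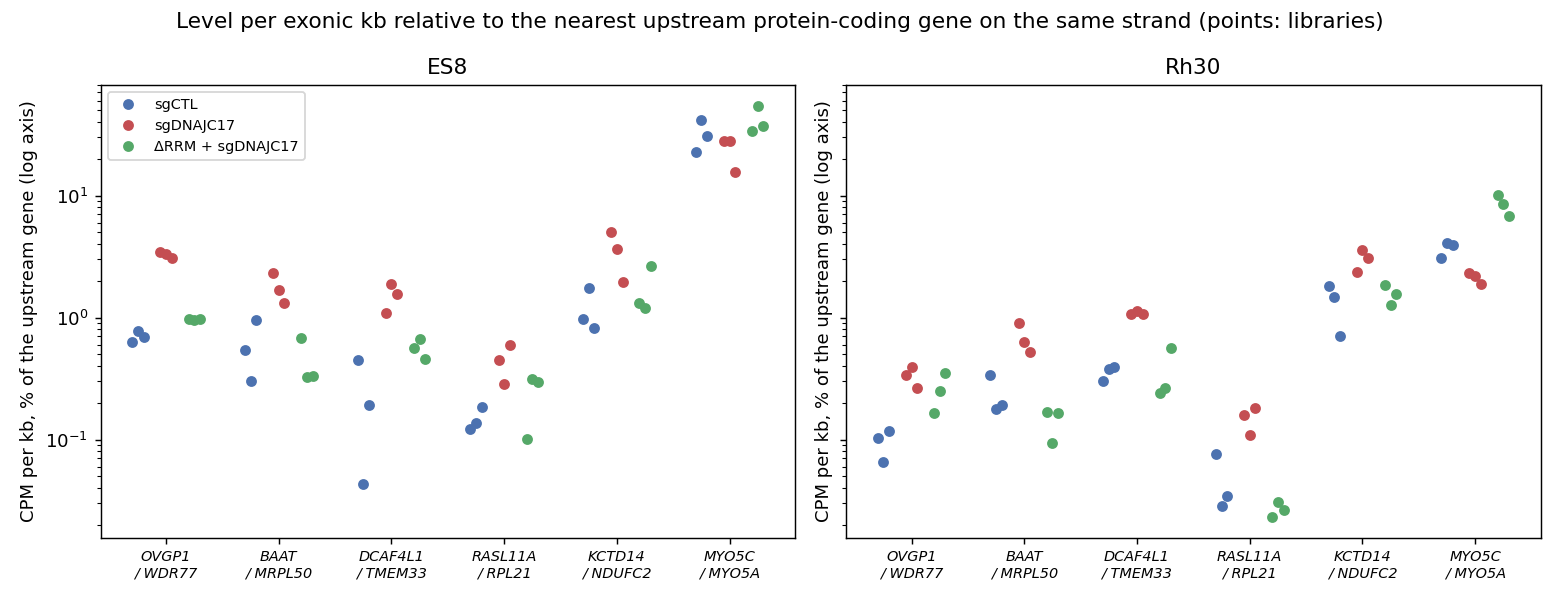
Level per exonic kb of each gene as a percentage of its nearest upstream protein-coding gene on the same strand (log axis), in ES8 (left) and Rh30 cells (right). Each point is a library. For the 5 genes higher after knockdown the sgDNAJC17 points lie above the sgCTL points, which the choice of the genes favours. *MYO5C* in ES8 shows overlap, at 31.7% with sgCTL and 23.8% with sgDNAJC17.

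Overlap with another annotated transcript on exonic bases was found for 3 of the 6 genes. *KCTD14* shares 395 of its exonic bases (20.6%) with the read-through gene *NDUFC2-KCTD14* on the same strand, and 686 bases (35.8%) with ENSG00000254829 on the opposite strand. *NDUFC2-KCTD14* had 0, 1 and 0 counts in Rh30 sgCTL libraries, 19, 15 and 11 in Rh30 sgDNAJC17 libraries and 2, 4 and 2 in Rh30 ΔRRM libraries. It was the 1 neighbour of the 10 tested in Rh30 that passed the threshold on knockdown (edgeR adjusted p = 3.45e-04). Compared with sgDNAJC17 cells it was lower in Rh30 ΔRRM cells, with a log2 difference of -2.23 ± 0.59 (SE, edgeR adjusted p = 6.80e-04). Between Rh30 ΔRRM and sgCTL cells it had too few counts to test, so only the sgDNAJC17 libraries brought it into both tests. Those libraries also chose *KCTD14*, with which it shares exonic bases, so both values are descriptions and not independent evidence. In ES8 libraries *NDUFC2-KCTD14* had 1, 0 and 3, then 1, 7 and 1, then 3, 0 and 3 counts in the 3 groups, too few to test. How reads in the shared exons were assigned is not given in the sources used here, so the *KCTD14* counts are uncertain to that extent.

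*BAAT* shares 453 exonic bases (13.4%) with ENSG00000230328 on the opposite strand, and *MYO5C* shares 318 (3.17%) with *CERNA1* on the opposite strand. ENSG00000230328 and ENSG00000254829 had 0 counts in all 18 libraries, and *CERNA1* had between 0 and 7. Whether counting used strand is not given in the sources used here. *FYTTD1P1*, a pseudogene inside *BAAT*, and *MIR1266* and ENSG00000254675, inside *MYO5C* and *KCTD14*, share no exonic base with them.

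In the space between *WDR77* and *OVGP1* lie the long noncoding RNA ENSG00000260948 and the pseudogene *UBE2FP3*, and the long noncoding RNA ENSG00000243960 begins inside *WDR77* and ends in this space. ENSG00000260948, whose end is 3.27 kb before *OVGP1*, had 64, 58 and 44 counts in ES8 sgCTL libraries and 36, 73 and 77 in ES8 sgDNAJC17 libraries, a difference of 0.43 ± 0.27 (SE) that did not pass (edgeR adjusted p = 0.267). ENSG00000243960 (-0.20 ± 0.38) and *UBE2FP3* (0.18 ± 0.26) did not pass either, and all 3 had too few counts in Rh30. Downstream of *DCAF4L1*, *SLC30A9*, a zinc transporter gene that begins after 4.004 kb, did not pass on knockdown in either line (-0.11 ± 0.08 in ES8 and 0.09 ± 0.07 in Rh30). *GNB5*, a G-protein beta subunit gene 0.952 kb downstream of *MYO5C*, was lower in ES8, at -0.48 ± 0.11 (edgeR adjusted p = 0.0111) and differed by -0.18 ± 0.07 in Rh30 (edgeR adjusted p = 0.0642). Of 25 neighbours in all, 12 could be tested in ES8, and none passed the 2-fold threshold there, with 5 of 12 at an unadjusted p under 0.05 in edgeR against 39.8% of all genes tested.

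Relatives of the 6 genes were listed by function. None of the family members tested was past the 2-fold threshold on knockdown in either line by edgeR (69 in ES8 and 64 in Rh30), and 31 in each line had an unadjusted p under 0.05, where the share over every tested gene was 39.8% (ES8) and 42.4% (Rh30). On adjusted p alone, 13.6% of all genes tested were higher and 13.8% lower in ES8, and 16.1% higher and 16.2% lower in Rh30, which is the background for the counts that follow. Of 19 parts and receptors of CUL4-DDB1 ligases tested, 3 were higher and 6 lower on adjusted p alone in ES8, and 4 higher and 5 lower in Rh30. Among them *RBX1* and *DCAF12* were higher, and *DDB2* and *DCAF16* lower, in both lines. *DCAF4*, the parent relative of *DCAF4L1*, was lower in ES8 (-0.30 ± 0.08, SE, edgeR adjusted p = 0.0195) and higher in Rh30 (0.28 ± 0.06, edgeR adjusted p = 0.00415). Of the RAS-like GTPases with the ribosomal RNA transcription factor gene *UBTF*, 4 of 10 tested were higher and 1 lower in ES8, and 2 of 8 higher in Rh30. *NKIRAS2* and *RIT1* were higher in both lines. *RASL11B*, the closest relative of *RASL11A*, was higher in ES8 by 0.57 ± 0.13 (edgeR adjusted p = 0.00987) and did not pass in Rh30 (0.12 ± 0.09, edgeR adjusted p = 0.376).

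Of the KCTD proteins with *CUL3*, 3 of 18 tested were higher and 1 lower in ES8, and 4 of 17 higher and 1 lower in Rh30. *KCTD5* was higher in both lines, by 0.52 ± 0.06 in ES8 (SE, edgeR adjusted p = 3.65e-04) and 0.20 ± 0.06 in Rh30 (edgeR adjusted p = 0.0249). So was *KCTD10*, by 0.28 ± 0.06 (edgeR adjusted p = 0.00663) and 0.17 ± 0.06 (edgeR adjusted p = 0.0433). Among 10 class V myosins and RAB partners tested per line, 1 was lower in ES8 (*MYO5A*) and 2 in Rh30 (*MYO5A* and *MYO5B*, -0.30 ± 0.06, edgeR adjusted p = 0.00336). The bile acid genes had 0 higher and 2 lower of 10 tested in ES8, and 1 higher and 1 lower of 7 in Rh30. *HSD3B7*, an enzyme of bile acid synthesis, was the lower gene in Rh30 (-0.72 ± 0.08, edgeR adjusted p = 3.48e-05). Of the chitinase-like hydrolases, none of 2 tested passed in ES8 and 1 of 3 in Rh30, the lysosomal *CTBS* (0.29 ± 0.10, edgeR adjusted p = 0.0432). Family medians lay between -0.11 and 0.28 in ES8, where the median of all genes tested was -0.02. Rh30 medians ran from -0.14 to 0.05, with 0.005 over all genes tested.

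Markers of tissues known for 3 of the genes were also examined. The summed level of 8 liver markers was 2.36 to 3.19 CPM in ES8 sgCTL, 1.46 to 1.95 in sgDNAJC17 and 2.48 to 3.48 in ΔRRM libraries. It was lowest in the group where *BAAT* was highest. In these groups 5, 4 and 5 of the 8 markers were at 3 counts or fewer in every library. In Rh30 cells the sum was 1.55 to 2.41, 2.94 to 3.71 and 0.874 to 1.65 CPM, highest in the group where *BAAT* was highest. There 7 of the 8 markers, all but *SERPINA1*, were at 3 counts or fewer in every library. The sum of 6 oviduct and ciliated cell markers was 19.95 to 22.5, 21.1 to 26.3 and 19.5 to 22.6 CPM in the ES8 groups and 82.6 to 98.8 CPM over the Rh30 libraries, where *FOXJ1*, *RSPH1* and *DNAI1* were at 3 counts or fewer in every library. The sum of 10 epithelial markers was 34.0 to 44.9 CPM over the ES8 libraries. In Rh30 it was 1.18 to 1.61 CPM with sgCTL, where 6 of 10 were at 3 counts or fewer, 12.7 to 18.5 with sgDNAJC17 and 13.9 to 15.8 in ΔRRM cells. Both groups with sgDNAJC17 thus lay above the sgCTL range, whereas *MYO5C* was lower in one and higher in the other. The part of these marker levels in the results was not tested.

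Across all 18 libraries, with line means removed, the genes with the most similar log2 CPM patterns among 19399 were listed by Pearson's r. These values describe libraries that share 3 groups per line and carry no test. For *OVGP1* they were *KTI12* (r = 0.94) and *ATF4* (0.93), the latter encoding a transcription factor of the stress response. For *BAAT* they were ENSG00000230736 (0.94) and *SNORA75* (0.91), for *DCAF4L1* the read-through gene *HSPE1-MOB4* (0.94) and *EAF1* (0.91), and for *RASL11A* the snoRNA host *SNHG17* (0.85) and *PRPF4* (0.85), a splicing factor gene. For *KCTD14* they were ENSG00000255508 (0.93) and the snoRNA host *SNHG15* (0.91), and for *MYO5C* they were *NRN1* (0.98) and *MCCC1* (0.96). Among the 5 genes higher after knockdown r ran from 0.65 to 0.83, and with *MYO5C* from -0.84 to -0.62. These signs are favoured by the choice of the genes, because the knockdown and control libraries that chose them are among the 18.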

How the data were processed

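Per the labels, polyadenylated RNA of 18 cultures was sequenced. The authors deposited whole-number read counts per gene for each library, not normalized, with exon coordinates. The submitters' processing notes name Trimmomatic 0.36, STAR 2.5.2b, featureCounts of Subread 1.5.2 and GRCh38. The study's methods name hg19, but the positions in the deposited files are those of GRCh38. The strand setting and the handling of reads shared by genes are not given in the sources used here.

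The count test was that of edgeR 4.0.16, run under R 4.3.3 (quasi-likelihood, TMM, filterByExpr, Benjamini-Hochberg adjustment over all genes tested), 1 fit per pair of groups, and a gene was called at an adjusted p under 0.05 with at least a 2-fold change. Interactions used 4 groups and adjusted p alone. Intervals are 1.96 SE on either side. Spread was estimated within each fit, so p-values and shares of genes passing are not on the same scale in different fits. For *BAAT* in ΔRRM against sgDNAJC17 cells, -1.93 ± 0.47 (SE) in ES8 had an unadjusted edgeR p of 0.00125. In Rh30, -1.74 ± 0.43 had an unadjusted edgeR p of 1.28e-04. CPM used TMM factors over all libraries, and a prior count of 2 on the log2 scale. Symbols were found by identifier for 55082 genes and 2418 had none. Alternatives were DESeq2 1.42.0, its size factors, library totals, other filters, all libraries in 1 fit, a replicate block, each library left out and, chosen after seeing the data, a correction for GC content and length (values for at least 98.7% of tested genes). Procedures were tested on simulated data. No pair of replicates differed by less than sampling noise (lowest chi-square per degree of freedom 2.63).

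Replicate letters were checked by correlating deviations from group means over genes with a mean count of at least 500. In the Rh30 knockdown comparison every letter was over 0.1 (0.765, 0.464 and 0.512 for A, B and C, 8688 genes). In every other comparison at least 1 letter was under 0.1. Large values of either sign occurred there too, such as -0.569 for B and 0.509 for C in the ES8 knockdown comparison. The correlations therefore do not settle whether the letters pair the libraries, and the reported fits did not use the letters.

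The 6 genes, the families, the markers and the 25 kb limit were chosen with earlier results of these data known. Genes named besides the 6 were their neighbours by position, the closest relatives and some of the listed relatives that passed on p. The others were the 4 genes on either side of the 2-fold limit, and the 2 most similar per gene.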

Additional observations from a re-analysis of the deposited data

Results flagged for a closer look

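None of the 6 genes met a criterion for a closer look, but their upstream neighbours did: the ΔRRM effect differed between the lines by an interaction test (edgeR, Rh30 minus ES8, log2). Against sgDNAJC17 cells the difference was -0.59 for *WDR77* (0.31 in ES8 and -0.26 in Rh30), 0.50 for *MRPL50* (-0.003 and 0.51), 0.92 for *RPL21* (0.24 and 1.18) and -0.90 for *MYO5A* (0.61 and -0.27). Against sgCTL cells it was -0.33 for *WDR77*, 0.88 for *MRPL50*, 0.41 for *TMEM33*, 0.99 for *RPL21*, 0.50 for *NDUFC2* and -0.57 for *MYO5A*. Adjusted p ran from 1.83e-07 to 0.0211 in edgeR. Of all genes tested, 28.3% and 41.4% passed the same tests. The *RASL11A* to *RPL21* ratio in Rh30 ΔRRM cells therefore rests on an *RPL21* level that was itself 1.37 higher on the log2 scale than in sgCTL cells. The cause of these differences was not tested.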

How the results depend on the processing

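The replicate block changed no call of the 6 genes. With it the count of called genes was 280 in ES8 and 1197 in Rh30 for ΔRRM against sgDNAJC17, 267 in the Rh30 knockdown, and 11 in place of 6 for ES8 ΔRRM against sgCTL. With no filter on low counts this last count was 32 and the ES8 knockdown count 526. With at least 10 counts in every library the knockdown counts were 175 (ES8) and 123 (Rh30), those for ΔRRM against sgDNAJC17 were 211 and 787 (2 of 3 tested among the 6 genes in Rh30) and that between control lines 4868 (0 of 1 tested), since fewer genes could be tested. DESeq2 gave 148 in the Rh30 knockdown. It called 5 of the 6 genes in each knockdown, without *BAAT* in ES8 and without *OVGP1* in Rh30, to which it gave no adjusted p. The correction for GC content and length gave 942 for Rh30 ΔRRM against sgCTL, and the cause was not tested. With all 18 libraries in 1 fit, 1 of the 6 genes was called there, *OVGP1* (log2 1.04, edgeR adjusted p = 0.0346), which had too few counts to be tested in the reported fit. It was not called with DESeq2 (1.11, adjusted p = 0.234), with no filter (1.06, edgeR adjusted p = 0.210) or in the 4 fits without 1 library that could test it (edgeR adjusted p 0.0515 to 0.230).

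Leaving out 1 library, the ranges were 2 to 16 called genes for ES8 ΔRRM against sgCTL, 254 to 482 for the ES8 knockdown, 4 to 6 of the 6 genes for the knockdown in ES8 and 5 to 6 in Rh30, 3 to 4 of the 6 genes for ΔRRM against sgDNAJC17 in ES8 and 3 to 5 in Rh30. *KCTD14* was then called in Rh30 without sgDNAJC17 replicate A (-1.19) or ΔRRM replicate A (-1.07). It was also called with library totals (-1.12) or the GC correction (-1.17), and in ES8 with all libraries in 1 fit (-1.20, edgeR adjusted p = 0.0466).

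Values near 0 that changed sign, none of them called, were *DCAF4L1* in Rh30 ΔRRM against sgCTL (-0.15 to 0.47 over libraries left out), *MYO5C* between control lines (-0.15 with library totals, -0.030 with at least 10 counts, -0.12 to 0.21 over libraries left out, -0.02 without Rh30 sgCTL replicate C) and 2 line interactions. These were *BAAT* against sgDNAJC17 (-0.062 to 0.57 over libraries left out) and *KCTD14*, at -0.032 against sgDNAJC17 with the GC correction and against sgCTL at -0.028 with library totals, -0.049 with the GC correction and -0.13 to 0.48 over libraries left out, -0.09 without ES8 sgCTL replicate B.

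An upstream neighbour was found for 1 of the 5 genes in either line with a limit of 10 kb (12.2% and 12.3% of protein-coding genes tested in ES8 and Rh30). All 5 had one at 50 kb (27.7% and 27.6%) and with at least 1 CPM (26.6% and 25.2%), and 4 when the nearest neighbour of any class was taken (18.6% and 18.5%). Low counts limit the precision of all 6 genes, with means over the sgCTL and sgDNAJC17 libraries of 10.7 to 100.2 in ES8 and 11.8 to 46.0 in Rh30. Between control lines *KCTD14*, not tested in the reported fit, was called in 2 of the 7 fits that could test it, without ES8 sgCTL replicate B or Rh30 sgCTL replicate C.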
